A study of Arabidopsis thaliana with 72 samples.

Results

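Late embryogenesis abundant (LEA) genes encode small, hydrophilic and largely unstructured proteins that accumulate in the embryo as the seed dries. The 9 genes described here are 8 LEA genes and PER1, out of 32833 genes in the expression table. They were taken as a list of genes of seed desiccation, chosen with earlier results of these data known. EM1 (AT3G51810) and EM6 (AT2G40170) encode EM proteins, RAB18 (AT5G66400) encodes a dehydrin, and ECP63 (AT2G36640), LEA7 (AT1G52690), LEA4-5 (AT5G06760), LEA4-2 (AT2G35300) and LEA4-1 (AT1G32560) encode further LEA proteins. PER1 (AT1G48130) encodes a peroxiredoxin, an enzyme that reduces peroxides through a catalytic cysteine, and is known from the embryo and the aleurone layer. Many of these genes are known targets of abscisic acid, the hormone of seed maturation and drought, and are switched on through transcription factors such as ABI3 and ABI5. Dehydrins such as RAB18 are also known from leaves under water stress.

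The study mapped pseudouridine (Ψ), an isomer of uridine made in the RNA chain, by bisulfite-induced deletion sequencing (BID-seq), in which bisulfite treatment leaves a deletion at Ψ in the cDNA. Poly(A) RNA came from untreated *Arabidopsis thaliana* Col-0 plants in 9 tissues, as 56 bisulfite-treated and 16 input libraries. The tissues were mature dried seed, silique, flower, seedling (7 days), root and shoot (each 14 days), rosetta leaf (30 days), cauline leaf and stem, and silique, flower, cauline leaf and stem were taken after flowering. The 16 expression columns are in TPM, the share of a gene among all transcripts after division by gene length, scaled so that each column sums to 1000000, with 2 columns for each tissue but seed and rosetta leaf, which have 1 each. The columns are named by tissue and replicate and equal the input libraries in number, and the study's methods call its replicates biological, but the names do not say which library or how many plants lie behind a column.

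The tissue labels were compared with known marker genes. The summed TPM of 9 seed storage and oil body genes was highest in seed, for 8 of these 9 genes singly as well, and that of 4 floral organ genes was highest in flower for 4 of 4. The stem list was highest in stem for 3 of 3 genes, the root list in root for 2 of 3, and the list for green tissue in rosetta leaf for 3 of 3. Because TPM are shares of the RNA of a tissue, fewer cells that express a gene and less of its RNA per cell cannot be told apart.

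All 9 genes were among the most abundant transcripts of dry seed and were far lower in every other tissue. Together they held 3.49% of all TPM in seed, 0.0489% and 0.0780% in the silique columns, and 0.00411% to 0.0377% in the other 13 columns. The ranks in seed among all genes ran from 3 (RAB18) to 146 (ECP63), and none of the genes was at 0 in any column. The level in seed was above the highest mean of another tissue by 16.6-fold (PER1) to 153-fold (EM6), and that other tissue was silique for 8 genes and seedling for RAB18.

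EM1 had 2614 TPM in seed, against 0.684 to 33.9 TPM in the other 15 columns (median 2.13). EM6, the smaller of the EM proteins, had 6088 TPM in seed, against 6.26 to 67.4 TPM elsewhere (median 12.0). Both genes therefore peaked in seed, with their highest other column in silique and their lowest in cauline leaf. RAB18 had the highest seed level of the 9 genes, 8742 TPM, and also the highest levels outside seed, 15.5 to 280 TPM (median 96.5), with the lowest column in root and the highest in seedling. Among the remaining LEA genes, ECP63 had 998 TPM in seed, against 0.178 to 30.8 TPM elsewhere (median 0.916), the lowest levels of the set at both ends. LEA7 had 3115 TPM in seed, against 1.60 to 83.6 TPM elsewhere (median 18.4). LEA4-5, LEA4-2 and LEA4-1, which are related proteins, are given next. LEA4-5 had 3911 TPM in seed, against 5.22 to 52.3 TPM elsewhere (median 8.98). LEA4-2 had 2902 TPM in seed, against 1.33 to 46.0 TPM elsewhere (median 6.97). LEA4-1 had 2959 TPM in seed, against 2.26 to 68.6 TPM elsewhere (median 5.15). The seed levels of these 3 genes ran from 2902 to 3911 TPM, a range that also holds those of LEA7 and PER1. Silique replicate 2 was their highest other column, as it was for EM1, EM6, ECP63, LEA7 and PER1. PER1 had 3598 TPM in seed, against 2.70 to 230 TPM elsewhere (median 4.30), and its silique columns stood apart from the rest.

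**Figure D1:**
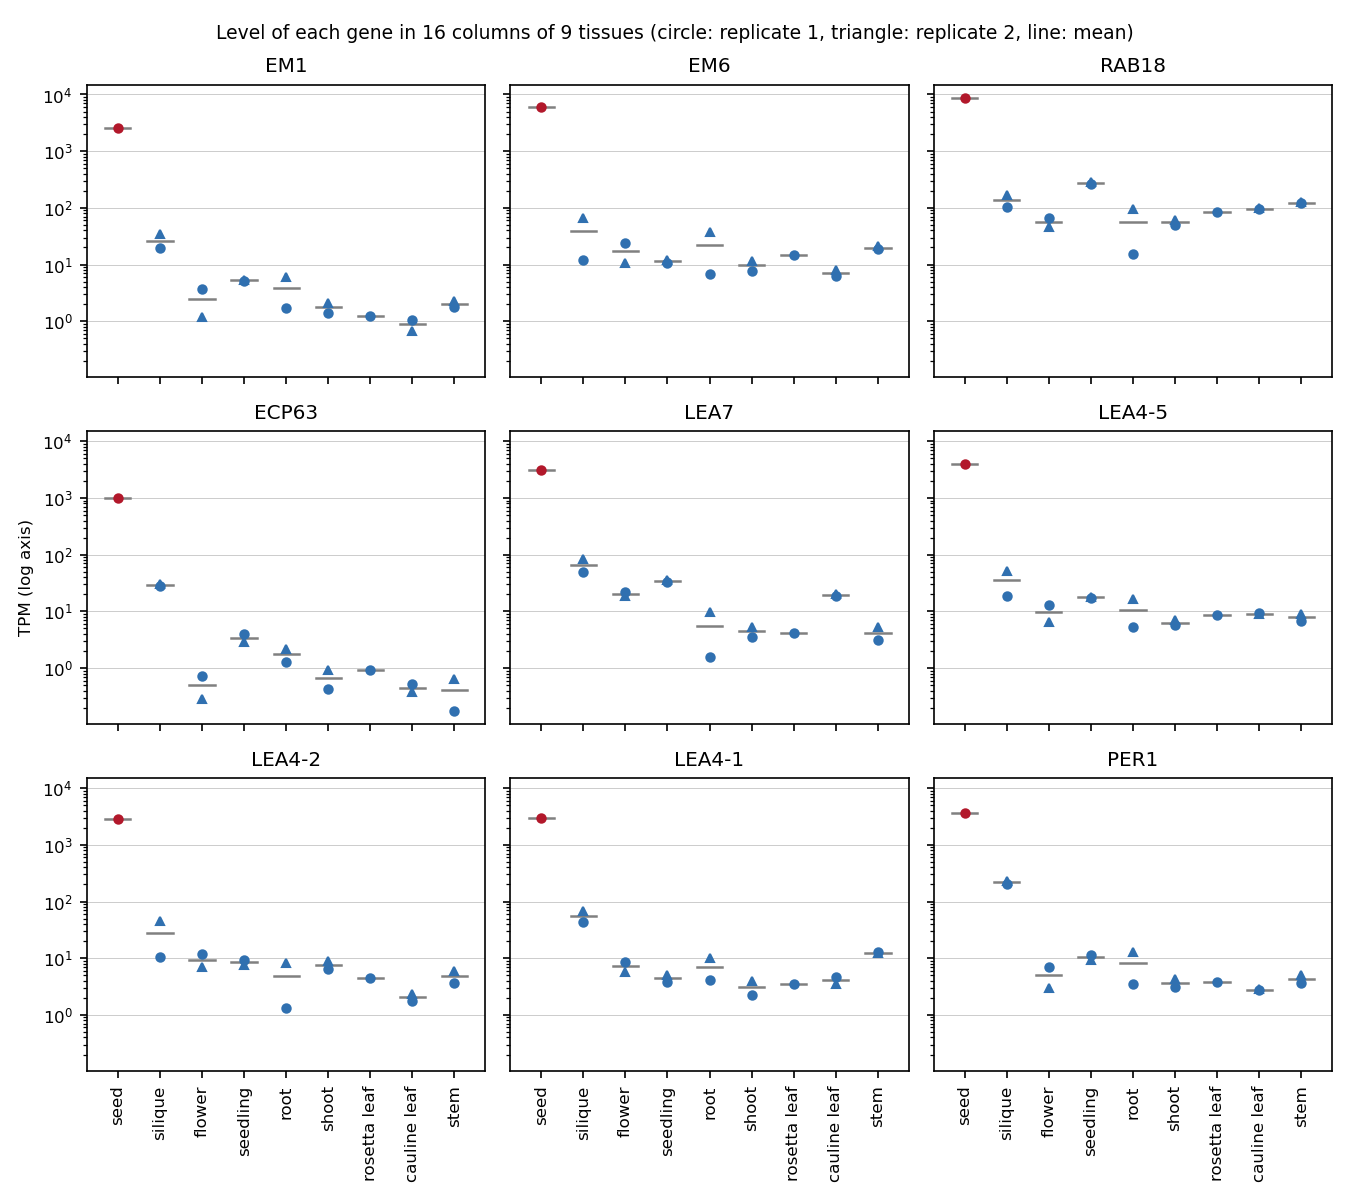
TPM of each of the 9 genes (log axis) in the 16 columns of 9 tissues, with circles for replicate 1, triangles for replicate 2 and a line at the mean of a tissue. The seed column (red) is the highest in every panel, and silique is the next highest mean in every panel but that of RAB18, where seedling is.

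To ask how far seed exceeds the rest of the plant, the seed column was set against the mean of the 8 other tissues on the log2(TPM + 1) scale with limma, over 22381 genes with a mean of at least 1 TPM. A gene was called when its Benjamini-Hochberg adjusted p was under 0.05 and its log2 difference was at least 1 in size. The lone seed column was assumed to vary like the tissues with 2 columns. All 9 genes passed the filter on low values, and all 9 would have passed it on the other 8 tissues alone, where ECP63 had the lowest mean, 4.70 TPM. All 9 were called higher in seed, where 13.3% of all genes tested were called higher and 46.8% lower. The list was chosen as seed genes with earlier results of these data known, so this count is a description and no independent test. The median difference of the 9 genes was 8.50, against -0.88 for all genes tested. EM1 differed most, by 9.31 (SE 0.45, limma adjusted p = 1.0e-09), and RAB18 least, by 6.58 (SE 0.60, limma adjusted p = 4.5e-07). Between these lay EM6 (8.64), LEA4-2 (8.63), PER1 (8.61), ECP63 (8.50), LEA4-1 (8.48), LEA4-5 (8.36) and LEA7 (7.93), all log2 differences. This order depended on the pseudocount. With a pseudocount of 5, EM6 (8.27) was above EM1 (8.22). ECP63 was at 7.05 with a pseudocount of 5 and at 9.44 with a pseudocount of 0.1. The 9 calls were made under each of the 6 other settings and 15 omissions of 1 column that were computed. The seed column itself has no replicate, so the comparison cannot be made without it.

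Silique, the fruit that holds the developing seeds, was compared with the mean of the 6 vegetative tissues. Of the 9 genes, 7 were called higher, where 15.7% of all genes tested were called higher and 10.1% lower. PER1 had 204 and 230 TPM in the silique columns, against 2.70 to 13.0 TPM in the 11 vegetative columns (median 3.83), a log2 difference of 5.21 (SE 0.33, limma adjusted p = 2.6e-08). Both silique columns thus lay far above all vegetative columns. ECP63 had 28.1 and 30.8 TPM in silique, against 0.178 to 3.94 TPM in the vegetative columns (median 0.916), and differed by 3.89 (SE 0.17, limma adjusted p = 9.7e-10). The silique columns of this gene agreed closely and did not overlap the rest. LEA4-1 differed by 3.18 (SE 0.26), EM1 by 3.08 (SE 0.34) and LEA7 by 2.87 (SE 0.38), again with both silique columns above all vegetative columns. LEA4-2 had 10.6 and 46.0 TPM in silique, against 1.33 to 9.28 TPM in the vegetative columns (median 5.93), and LEA4-5 had 19.0 and 52.3 TPM, against 5.22 to 18.0 TPM (median 8.89). Their differences were 2.03 (SE 0.50) and 1.66 (SE 0.37), and without silique replicate 2 neither was called (log2 differences 1.02 and 0.95, limma adjusted p = 0.11 and 0.063), which left 5 of 9 genes called. Without silique replicate 1, 8 genes were called. All 9 genes were higher in silique replicate 2 than in replicate 1, by 1.10-fold (ECP63) to 5.63-fold (EM6) with a median of 1.68-fold. Of the 9 seed markers 1 was, with ratios of 0.959 to 1.00 and a median of 0.979.

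EM6 and RAB18 were not called in silique. EM6 had 12.0 and 67.4 TPM in silique, against 6.26 to 37.2 TPM in the vegetative columns (median 11.7), so 1 silique column lay inside the vegetative range. Its log2 difference was 1.14 (95% interval -0.14 to 2.43, limma adjusted p = 0.091). It was called without silique replicate 1 (2.34) and without root replicate 2 (1.34), and turned to -0.05 without silique replicate 2. RAB18 had 103 and 168 TPM in silique, against 15.5 to 280 TPM in the vegetative columns (median 96.5), and differed by 0.51 (95% interval -0.47 to 1.49, limma adjusted p = 0.31).

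The 9 genes stood much lower in silique, relative to their seed level, than the 9 storage and oil body markers did. In the silique columns their TPM were 0.197% to 6.38% of the seed level, with medians of 1.18% and 1.92%, while the 9 seed markers were at 29.3% to 113%, with medians of 48.7% and 48.1%. The ranges of these 2 lists did not overlap, but not every storage gene lay with the markers. SESA5, a 2S albumin outside the 9 markers, had 6417 TPM in seed and 425 TPM in silique, beside 3598 and 217 TPM for PER1. Each of the 9 genes was also higher in seed than in silique in the pairwise fits, by log2 differences of 4.05 (PER1) to 7.68 (EM6), where 24.9% of all genes tested were higher in seed by limma adjusted p.

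**Figure D2:**
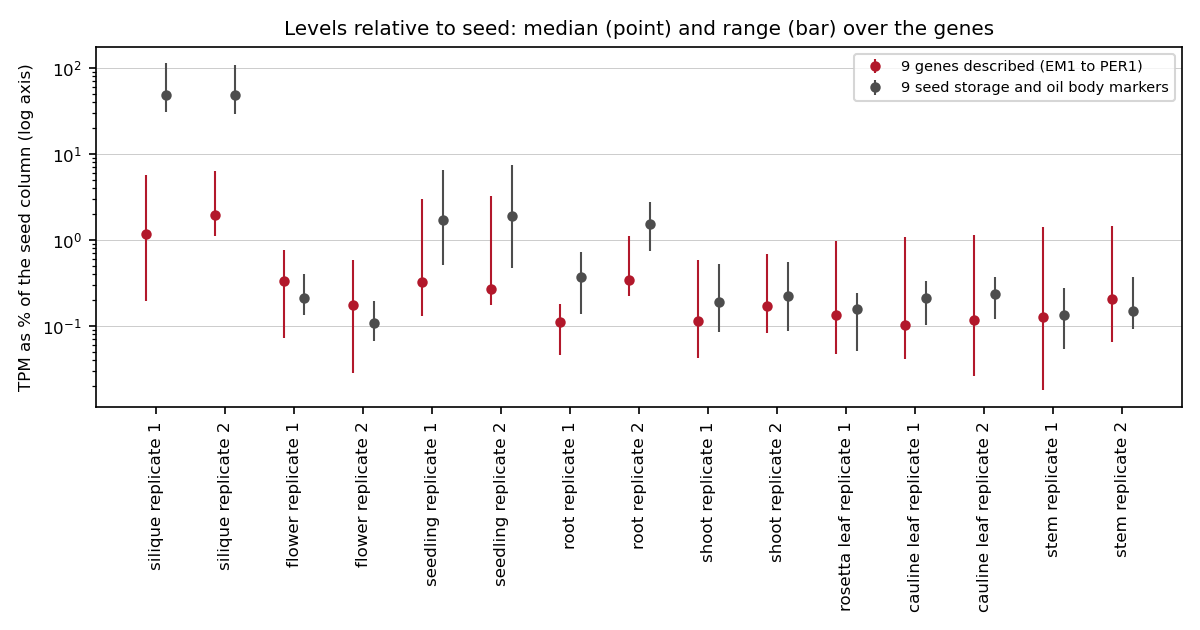
TPM as a percentage of the seed column (log axis) in the 15 other columns, with the median (point) and range (bar) over the 9 genes described (red) and over 9 seed storage and oil body markers (grey). In the silique columns the 2 ranges are apart, and root replicate 2 is above root replicate 1 for both groups.

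In flower, LEA7 alone was called against the mean of the 6 vegetative tissues, where 15.4% of all genes tested were called higher and 9.91% lower. LEA7 had 21.8 and 18.4 TPM in flower, against 1.60 to 36.2 TPM in the 11 vegetative columns (median 5.29), a log2 difference of 1.23 (SE 0.38, limma adjusted p = 0.011). The flower columns lay within the vegetative range, whose upper end is seedling, and the call was lost without flower replicate 1 (1.11, limma adjusted p = 0.087) and with a pseudocount of 5 (0.85). For the other 8 genes the log2 difference was between -0.74 (RAB18) and 0.82 (LEA4-2). All 9 genes were lower in flower replicate 2 than in replicate 1, with ratios of 0.316 (EM1) to 0.843 (LEA7), and so were all 9 seed markers, with ratios of 0.394 to 0.726. Whether seed RNA had a part in these levels was not tested.

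Root against shoot, collected separately from 14-day plants, gave a call for 0 of the 9 genes, where 21.3% of all genes tested were higher in root and 18.9% lower. At an unadjusted p under 0.05 there were 2 genes, LEA4-1 (0.92, limma adjusted p = 0.028) and ECP63 (0.72, limma adjusted p = 0.012), both under the fold required. The root columns differed widely for these genes. RAB18 had 15.5 and 96.5 TPM in root, against 50.8 and 60.2 TPM in shoot, so the root columns lay on either side of shoot. LEA4-2 had 1.33 and 8.29 TPM in root, against 6.40 and 9.04 TPM in shoot, and EM6 had 6.69 and 37.2 TPM in root, against 7.57 and 11.7 TPM in shoot. Over the 9 genes, root replicate 2 was above replicate 1 in 9 of 9, by 1.70-fold (ECP63) to 6.23-fold (LEA4-2) with a median of 3.69-fold. The median ratio over all genes of at least 1 TPM in root was 0.978. The 9 seed markers were likewise higher in root replicate 2 in 9 of 9, by 3.44-fold to 5.41-fold with a median of 3.98-fold, and summed to 584 TPM, against 149 TPM in replicate 1. The part of these seed transcripts in the root values was not tested. Without root replicate 1, 5 of the 9 genes were called higher in root (EM1, EM6, LEA4-5, LEA4-1 and PER1), and without root replicate 2, 3 were called lower (RAB18, LEA7 and LEA4-2).

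**Figure D3:**
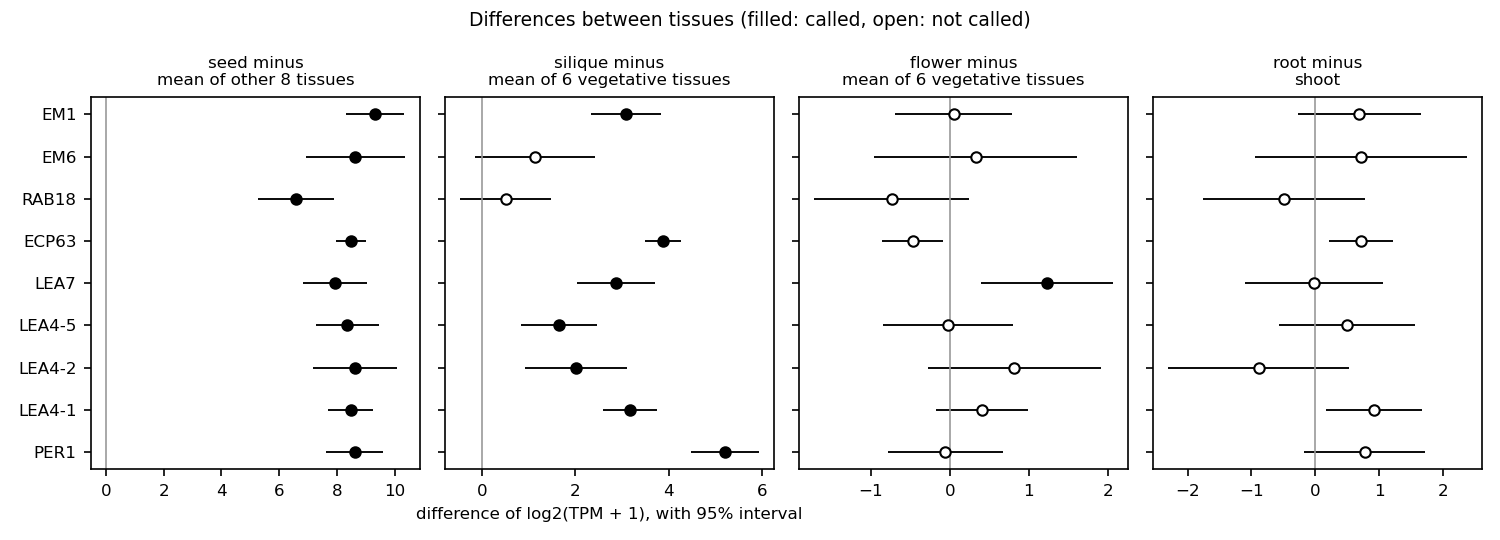
Difference of log2(TPM + 1) with its 95% interval for each of the 9 genes in 4 comparisons, where filled points are called and open points are not. All 9 points are filled for seed, 7 for silique, only that of LEA7 for flower and none for root against shoot; the horizontal scales differ.

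The order of the 9 tissues by level was tested between neighbours, in 72 pairs over the 9 genes. Seed was higher than the next tissue in 9 of 9 genes, where 24.9% of all genes tested were higher in seed than in silique and 25.2% higher in seed than in seedling, the next tissue for RAB18. Silique differed from the tissue below it in EM1, ECP63, LEA4-1 and PER1. Below that, only seedling against root for ECP63 (3.41 and 1.75 TPM, log2 difference 0.69, limma adjusted p = 0.014) and cauline leaf against root for LEA7 (19.2 and 5.61 TPM, 1.94, limma adjusted p = 0.0029) passed, 15 pairs in all. Of all neighbouring pairs over the genes tested, each in its own order of tissues, 44.8% passed. Among pairs without seed, 6 of 63 passed for the 9 genes, against 43.1% for all genes tested. In RAB18, seedling (270 TPM), silique (136 TPM), stem (124 TPM), cauline leaf (97.1 TPM), rosetta leaf (85.8 TPM), root (56.0 TPM), flower (55.8 TPM) and shoot (55.5 TPM) were not called against their neighbours. The test uses a spread shared over the tissues, which takes in the root columns at 15.5 and 96.5 TPM. The stem columns (122 and 125 TPM) lay above those of cauline leaf (95.1 and 99.2 TPM), and the seedling columns (259 and 280 TPM) above those of silique (103 and 168 TPM). LEA7 had means of 34.3, 20.1 and 19.2 TPM in seedling, flower and cauline leaf. Its means in root, shoot, stem and rosetta leaf were 5.61, 4.42, 4.16 and 4.14 TPM. The root mean is that of columns at 1.60 and 9.63 TPM.

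Outside seed the 9 genes were less alike. Over the 9 tissue means, which share the high seed value, Pearson's r of log2(TPM + 1) between 2 members was 0.865 to 0.991 over 36 pairs (median 0.959). Over the 8 tissues without seed it was 0.0425 to 0.983 (median 0.743). The pair most alike there was ECP63 and PER1, and RAB18 had the lowest median, 0.376. ECP63 and PER1 share a high silique value, 29.5 and 217 TPM, with at most 3.41 and 10.4 TPM in the tissues below it. Their r without silique was not computed. These values are descriptions over few tissues.

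Among the 22372 other genes tested, 27 had r of at least 0.99 with the mean profile of the 9 genes. The 5 most alike were AT5G07330 (0.998), AT5G66780 (0.998), GASA2 (0.998), AT5G44310 (0.997) and AT3G03620 (0.997), over 9 tissue means. For single genes the closest were AT5G07330 for EM1, AT5G35660 for EM6, AT5G45310 for RAB18, AT3G54940 for ECP63, AT3G53040 for LEA4-5, AT1G07985 for LEA4-2 and AT4G11040 for LEA4-1. The closest to LEA7 was NADP-ME1, a malic enzyme (0.972), and the closest to PER1 was SESA5, a 2S albumin (0.999), which had 6417 TPM in seed, against 425 TPM in silique.

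The wider LEA family was split. Of 42 other LEA genes listed, 41 were tested, and 24 were called higher in seed, 12 lower and 5 not (median log2 difference 5.67). Of all genes tested, 13.3% were called higher in seed and 46.8% lower. The genes of the LEA_4 family split into 10 higher and 4 lower of 16, the dehydrins into 4 higher and 5 lower of 9, and the seed maturation proteins (SMP) into 5 higher and 0 lower of 6. Among those that rose most was ECP31, with 3681 TPM in seed, against 14.3 TPM in silique (9.77, SE 0.80), followed by AT1G72100 (9.65) and AT3G22490 (9.57). Those that fell most were all dehydrins, of which ERD10 and COR47 are known from cold and drought responses of vegetative tissue. HIRD11 had 9.32 TPM in seed, against 1233 TPM in root, its highest tissue (-5.98, SE 0.09), ERD10 had 2.73 TPM in seed, against 574 TPM in root (-5.64), and COR47 had 3.46 TPM in seed, against 413 TPM in stem (-5.53). RAB18 thus stood with AT2G21490, LTI30, XERO1 and AT4G39130 as dehydrins higher in seed, while HIRD11, ERD10, COR47, ERD14 and AT4G38410 were lower.

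In silique 18 of the 41 other LEA genes tested were higher and 3 lower, against 15.7% and 10.1% of all genes tested. They were led by AT3G02480 (5.17), AT2G21490 (4.51) and AT4G21020 (4.06) and, on the lower side, SAG21 (-1.89), COR47 (-1.07) and LEA14 (-1.07). In flower 13 of the 41 were higher and 3 lower, against 15.4% and 9.91% of all genes tested. AT2G03850 (51.8 TPM in flower, 5.19), AT2G03740 (5.12) and AT5G27980 (4.69) led there and were at or below 0.766 TPM in seed, unlike any of the 9 genes described, and AT1G02820 (-2.70), LEA14 (-2.00) and LTI30 (-1.78) were lower. In root against shoot 9 of the 41 were higher and 5 lower, against 21.3% and 18.9% of all genes tested, so the share higher was near that of all genes. LTI30 (105 TPM in root, against 4.75 TPM in shoot, 4.21), AT2G46140 (3.51) and LEA14 (2.07) were at the upper end. COR15B (-2.59), AT1G02820 (-2.57) and M17 (-2.20) were at the lower. Without root replicate 1, 18 were higher and M17 was not called (-0.68), nor was it without shoot replicate 1 or shoot replicate 2 (-2.31 and -2.09). The values in parentheses without a unit are log2 differences.

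**Figure D4:**
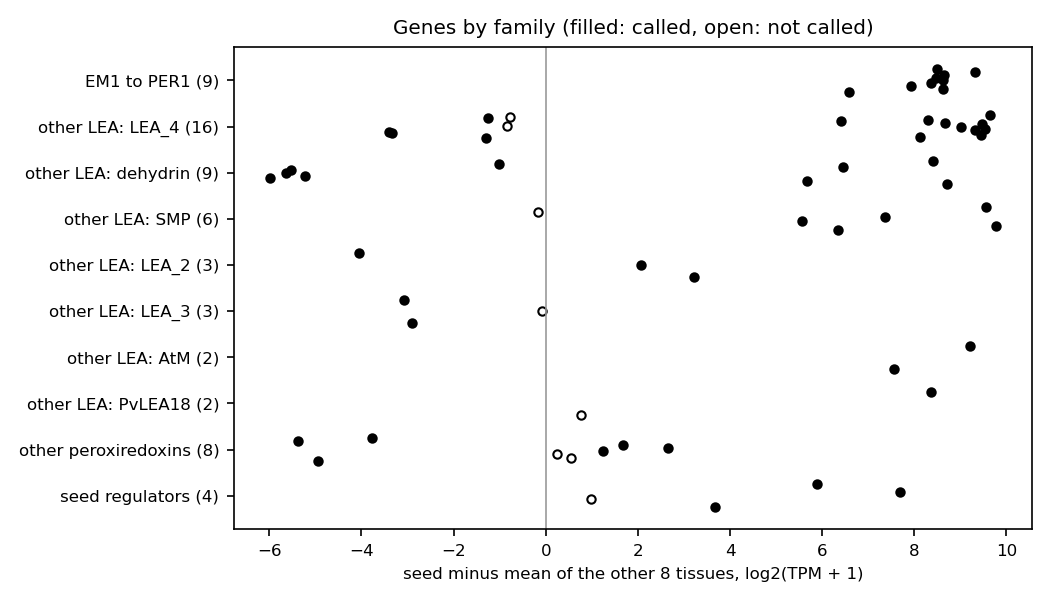
Difference of log2(TPM + 1) between seed and the mean of the 8 other tissues for the 9 genes described, the other LEA genes by family, other peroxiredoxins and 4 seed regulators, with filled points for called genes and the number tested in parentheses. The 9 genes lie between 6.58 and 9.31, while the dehydrins lie on both sides of 0.

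Beside PER1, 3 of 8 other peroxiredoxins were higher in seed and 3 lower, where 13.3% of all genes tested were called higher and 46.8% lower. PRXIIC (2.64), PRXIIB (1.67) and PRXIID (1.24), which are type II enzymes, were higher. The type II enzymes PRXIIE (0.26) and PRXIIF (0.54) were not called. 2CPB (-5.39), PRXQ (-4.94) and 2CPA (-3.76) were lower, all as log2 differences. PRXIIC and PRXIID were highest in flower (489 and 345 TPM), against 330 and 35.7 TPM in seed. PRXIID was not called without the rosetta leaf column (0.85) or with a pseudocount of 5 (0.88). PER1 had 3598 TPM in seed, against 816 TPM for PRXIIB, the highest of these. Of 4 regulators of seed maturation, ABI5 (625 TPM in seed, 7.68), ABI3 (111 TPM, 5.89) and EEL (87.6 TPM, 3.68) were higher in seed, and BZIP67 had 2.07 TPM in seed, against 25.8 TPM in silique, and was not called for seed (0.98), though it was with a pseudocount of 0.1 (3.09), with TPM rescaled by median ratios (1.09) and with silique left out of the other tissues (1.57). In silique all 4 were higher than in vegetative tissues, BZIP67 by 4.69, ABI3 by 4.37, EEL by 3.58 and ABI5 by 1.64. ABI5 was also higher in flower (26.0 TPM, 3.83), where of the 9 genes LEA7 alone was called.

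The promoters were searched for the core of the abscisic acid response element, ACGTG, which is bound by factors such as ABI5, and for the core of the RY element, CATGCA, which is bound by ABI3 and its relatives. The window ran from 250 bases before to 50 bases after the start of the gene, on both strands, in the RefSeq assembly TAIR10.1. Matches of 1 motif that overlap, as in the palindrome CACGTG, were counted as 1 place. ACGTG was found in 9 of the 9 promoters and in 26.7% of 27443 promoters of nuclear protein-coding genes. At least 3 places were found in 7 of the 9 (all but EM1 with 2 and PER1 with 1), and in 1.41% of all promoters. CACGTG was in 7 of the 9 promoters and in 7.68% of all. CATGCA was found in ECP63, LEA4-2, LEA4-1 and PER1 and in 9.72% of all promoters, and both motifs together in the same 4 genes and in 2.91% of all. Of the other 42 LEA genes, 29 had ACGTG and 6 had CATGCA. A match is a run of letters and no measure of binding.

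The stretches printed here show a CACGTG place close to the start of 3 genes of different families and the RY core of PER1 at its start, 5′ to 3′ on the strand of the gene, with the searched letters in capitals.
EM6, chr2:16780390-16780417, 38 bases before the start: taaagtcagacACGTGgcatgtcaccaa
LEA4-1, chr1:11774389-11774416, 84 bases before the start: acattaataacACGTGgaattaatgtga
PER1, chr1:17780371-17780398, 47 bases before the start: tatacgaagacACGTGgcgtgaacccaa
PER1, chr1:17780418-17780445, at the start: atactcttttgCATGCAcctcaatttga
In each of the first 3 the base before the capitals is c, which completes the palindrome, and in EM6 and PER1 the letters gc follow it. LEA4-1 has a further CACGTG place, 103 bases before the start and not printed here, which the letters gc follow as well.

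Ψ sites were listed in 5 of the 9 genes, 17 sites in all of 8512 in the site table. RAB18 held 8, LEA4-5 held 3, and ECP63, LEA7 and PER1 held 2 each, while EM1, EM6, LEA4-2 and LEA4-1 held none. Each site has a Ψ fraction per tissue, which the authors calibrated from the share of reads with a deletion, and a flag for passing their filter, here termed called. The reads of the replicates were summed by the authors, so the fractions have no replicate spread, and the depth behind them is unknown. All 17 sites were called in at least 1 tissue, as were 97.3% of all listed sites. Of the 17 sites, 16 were called in seed, where 18.2% of all listed sites were called, and 15 were called in seed alone, against 8.35% of all sites. In silique 0 were called, where 19.5% of all sites were, and in seedling and cauline leaf 1 each, where 26.0% and 18.8% were. The calls follow a filter on read evidence, and the TPM of these genes was 998 to 8742 in seed and at most 280 in any other column.

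The fractions at the 16 sites called in seed were low, 0 to 0.117 with a median of 0.0425, and 14 of them were below 0.1. The median over all 1546 sites called in seed was 0.198. Of the 9 genes, 5 (55.6%) held a called seed site, against 64.0% of 250 other nuclear genes of at least 500 TPM in seed, where the median fraction was 0.0779. The density was 1.82 called seed sites per kb in the 9 genes and 1.01 per kb in the 250. The 9 genes had 998 to 8742 TPM in seed, and the 250 were not matched to them by level. The part of expression level in these differences was not tested. RAB18 alone held 7 of the 16 sites (6.43 per kb), 4 genes held none, and without RAB18 the density was 1.17 per kb.

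The fraction listed in seed was not always the highest of the 9 tissues. At 15 of the 16 sites called in seed, at least 1 other tissue was listed with a higher fraction, ECP63 site 2 being the exception. This sets seed against the highest of 8 tissues, whose depth is unknown. Tissue by tissue, 3 sites were above seed and 12 below it in stem, seedling and rosetta leaf each, 4 above and 11 below in flower, 5 above and 10 below in root, 6 above and 9 below in silique and in shoot, and 7 above and 8 below in cauline leaf. Site 2 of PER1 had a fraction of 0.0498 in seed, called, and 0.516 in shoot, not called, where PER1 stood at 3.71 TPM, with 0 in the other 7 tissues. LEA4-5 site 1 had 0.0666 in seed and higher fractions in 5 other tissues, up to 0.137 in flower. The tissues could not be compared by a test, as no depth or replicate value is given.

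**Figure D5:**
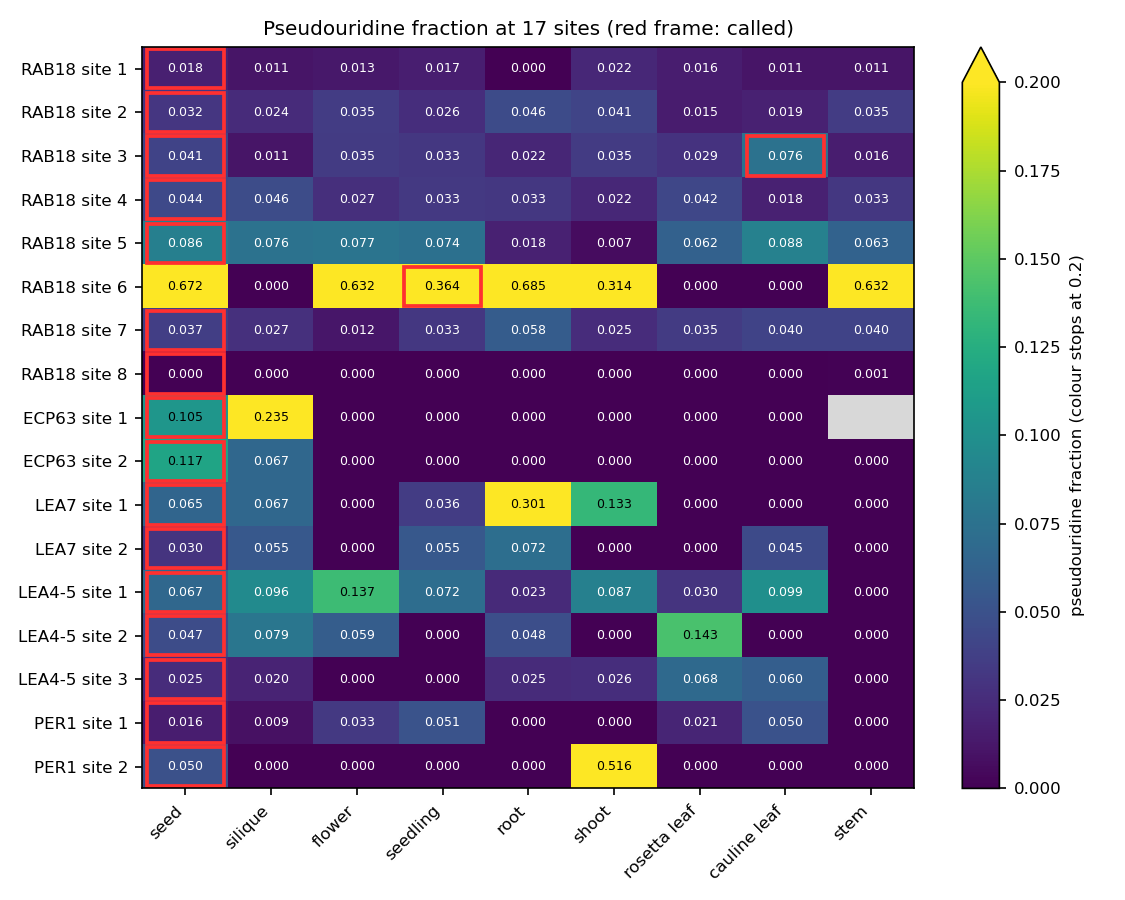
Ψ fraction (0 to 1) at the 17 sites in the 9 tissues, with a red frame where the site was called and grey where no value is listed. The red frames lie in the seed column for 16 sites and elsewhere only for RAB18 site 3 in cauline leaf and RAB18 site 6 in seedling.

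RAB18 held 4 sites at equal distances of 21 bases, at positions 26519016, 26518995, 26518974 and 26518953 of chromosome 5 (TAIR10, minus strand, coding sequence of exon 1). They are shown because they fall at the same place of a repeated sequence, 8 bases on either side and 5′ to 3′ in the sense of the mRNA, with the base read as Ψ as a capital T.
RAB18 site 1: gctacaggTggccaagg
RAB18 site 2: ggaacaggTggccaagg
RAB18 site 3: ggatcaggTggccaagg
RAB18 site 4: ggaaccggTggccaagg
The 11 letters from the second g before the site to the end of the window occur 4 times in the RAB18 mRNA, and each of the 4 is a listed site. The first 7 of these letters, ggTggcc, occur 5 times, and the fifth place is not a listed site. In each of the 4, Ψ lies between 2 G and is the third base of a GGT codon. The fractions in seed were 0.0175, 0.0318, 0.0406 and 0.0444 for sites 1 to 4, all called, against 0.0110, 0.0243, 0.0114 and 0.0464 in silique and 0.0169, 0.0260, 0.0326 and 0.0332 in seedling, none called. RAB18 is the gene of the set with the highest TPM outside seed. Site 3 was also called in cauline leaf, with a fraction of 0.0755.

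Sites 5 and 6 of RAB18 lie 4 bases apart across the end of its first exon.
RAB18 site 5, position 26518805: gctctagcTcggtacgt
RAB18 site 6, position 26518801: tagctcggTacgtatca
Site 5 is the third base from the end of the exon and the first base of a TCG codon. Its fraction was 0.0863 in seed, called, and 0.00700 (shoot) to 0.0878 (cauline leaf) in the other tissues. Site 6 is the second base of the only intron, the t of its gt donor, and is thus absent from the spliced mRNA. Its fraction was 0.672 in seed, not called, 0.364 in seedling, called, 0.685 in root, 0.632 in flower and in stem, 0.314 in shoot and 0 in silique, rosetta leaf and cauline leaf. It was the only site of the 17 in an intron and had the highest fraction of the 17 in seed, flower, seedling, root and stem, while PER1 site 2 (0.516) was higher in shoot. Of the fractions at site 6 only that in seedling was called. How many reads of unspliced RNA lie behind them is not given, so their rank is a description only. Sites 7 and 8 lie in the 3′ UTR, 47 and 111 bases after the end of the stop codon, with fractions in seed of 0.0371 and 0, both called. Site 8 was above 0 only in stem (0.00129), where it was not called.

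In the other genes the sites are shown with their surroundings to set beside the RAB18 repeat. LEA4-5 site 3 has, as in that repeat, Ψ between 2 G at the third base of a GGT codon.
ECP63 site 1, chromosome 2 position 15358514, coding: gccgaggtTgcggcgag
ECP63 site 2, chromosome 2 position 15357043, coding: gatgatgcTcggaaaga
LEA7 site 1, chromosome 1 position 19620340, coding: tcggaaacTggagaagc
LEA7 site 2, chromosome 1 position 19620463, coding: cagatggcTatgggagc
LEA4-5 site 1, chromosome 5 position 2089922, coding: atgtcggcTctgcctgg
LEA4-5 site 2, chromosome 5 position 2089832, coding: ggaactggTcggacaac
LEA4-5 site 3, chromosome 5 position 2089796, coding: ggtggtggTggtgccac
PER1 site 1, chromosome 1 position 17781626, 3′ UTR: gcactaggTgtaggcct
PER1 site 2, chromosome 1 position 17781662, 3′ UTR: ttgttctaTatagagtg
ECP63 had the highest fractions among the sites called in seed, 0.105 at site 1, against 0.235 in silique, and 0.117 at site 2, against 0.0665 in silique, with 0 in each other tissue that has a value. ECP63 is also the gene with the lowest seed level of the set. LEA7 had 0.0651 at site 1 and 0.0301 at site 2 in seed, against 0.0668 and 0.0553 in silique. LEA4-5 had 0.0666, 0.0468 and 0.0252 at sites 1 to 3 in seed, against 0.0956, 0.0789 and 0.0199 in silique. PER1 had 0.0163 at site 1 in seed, against 0.00878 in silique, and both of its sites lie in the 3′ UTR, 126 and 162 bases after the stop codon.

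The place of the sites in the gene and codon was set beside that of 7749 listed sites that lie in a single nuclear protein-coding gene on its strand. Of the 17, 12 lie in coding sequence (70.6%, against 78.4% of all), 4 in the 3′ UTR (23.5%, against 8.76%), 1 in an intron (5.88%, against 8.23%) and 0 in the 5′ UTR (against 4.23%). Of the 12 coding sites, 11 are at the third base of a codon (91.7%, against 46.4% of 6079 coding sites) and 1, RAB18 site 5, at the first (8.33%, against 27.2%). The 4 sites of the RAB18 repeat are among the 11 and share their sequence. ECP63 site 1, also among the 11, lies in a GTT codon. There a deletion alone does not tell the second base from the third, and the listed position was used. Ψ between 2 G accounted for 6 of the 16 sites called in seed (37.5%), of which 4 are the RAB18 repeat, and for 10.3% of all sites called in seed. Ψ between 2 C accounted for 3 (18.8%), close to the 17.7% of all. No stretch of 31 bases of any of the 9 mRNAs was found elsewhere in the genome. The longest run shared between 2 of them was 14 bases. Only exact matches outside the gene itself were searched, which leaves out the repeat within RAB18. How the reads of the authors were placed was not tested. RAB18 overlaps AT5G66410 and LEA7 overlaps AT1G52695 on the other strand. These neighbours had at most 47.5 and 31.9 TPM in any tissue, and how the authors' counts used the strand is not given in the sources used here.

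Other LEA genes with high seed levels also held sites called in seed alone. Of the 42, 23 held 51 sites, of which 47 were called, 33 in seed and 31 in seed alone. Of all listed sites, 97.3% were called in any tissue, 18.2% in seed and 8.35% in seed alone. M17, a seed protein gene with 4399 TPM in seed, against 156 TPM in seedling, held 11 sites, all called in seed alone with fractions of 0.0166 to 0.0789. RAB28, at 235 TPM in seed, held 1 site with a fraction of 0.702 in seed, above the fraction at each of the 17 sites in seed. The dehydrins COR47, ERD10 and HIRD11, which were low in seed, held 4, 2 and 2 sites, called only in other tissues.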

How the data were processed

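The authors sequenced bisulfite-treated and input libraries, mapped reads to TAIR10 with their published BID-seq pipeline, summed reads over the replicates of a tissue and deposited a Ψ fraction (0 to 1) per site and tissue with a flag for their filter, whose threshold is not given in the sources used here. Gene expression was deposited by the authors as TPM, which sum to 1000000 in each column; aligner and counter are not given in the sources used here. Depth is unknown for both. Columns were assigned to tissues by name.

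log2(TPM + 1) was fitted with limma 3.58.1 in R 4.3.3 (1 group per tissue, trend, two-sided, Benjamini-Hochberg over the 22381 genes with a mean of at least 1 TPM; 7 residual degrees of freedom). Tables and figures were made with Python 3.11.15, numpy 2.4.6, pandas 2.3.3 and matplotlib 3.10.9, and the fit was tested on simulated data. The members and gene lists were chosen with earlier results of these data known. Named genes were the 9 genes and all their sites, per comparison the 3 called other LEA genes with the largest difference in each direction, all 4 regulators, the peroxiredoxins called for seed and the most alike genes; further genes named were chosen after their values were seen. Alternatives were other pseudocounts, no filter on low values, rescaled TPM, a replicate block, other tissues without silique, each column left out and minimum Ψ fractions. Positions are in TAIR10; sequence was read from RefSeq TAIR10.1, whose bases matched the listed motif at 100% of the nuclear sites, with the same bounds for the 9 genes. Windows were 8 bases on either side of a site.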

Additional observations from a re-analysis of the deposited data

How the results depend on the processing

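Of the alternatives computed, a pseudocount of 5 lowered the genes called in silique to 2305 higher and 1211 lower (3521 and 2250 with a pseudocount of 1) and in flower to 2166 and 1233 (3454 and 2218), with 0 of the 9 genes called in flower. For root against shoot, a pseudocount of 0.1 gave 2 of the 9 genes higher (ECP63 and LEA4-1) and 8 other LEA genes lower, and a pseudocount of 5 gave 3 other LEA genes lower. Omission of 1 column at a time gave 0 to 5 of the 9 genes higher in root (5 without root replicate 1, 1 without shoot replicate 2) and 0 to 3 lower (3 without root replicate 2), 9 to 18 other LEA genes higher and 0 to 1 genes of the 9 higher in flower. Omission of 1 column at a time also turned the sign of log2 differences. For EM6 in silique they ranged between -0.054 (without silique replicate 2) and 2.34. In flower they ranged between -0.51 and 0.61 for EM1, -0.21 and 0.87 for EM6, -0.47 and 0.42 for LEA4-5, and -0.56 and 0.44 for PER1. For root minus shoot they ranged between -0.016 and 1.39 for EM1, -0.44 and 1.87 for EM6, -1.77 and 0.79 for RAB18, -1.04 and 0.99 for LEA7, -0.24 and 1.24 for LEA4-5, -1.89 and 0.11 for LEA4-2, and -0.045 and 1.59 for PER1, with the lower end without root replicate 2 and the upper end without root replicate 1 in each. LEA7 in root minus shoot was also 0.066 with a pseudocount of 5 and 0.040 with rescaled TPM. The cause was not tested. A minimum Ψ fraction of 0.05 left 7 of the 17 sites called, and one of 0.1 left 3. Replicate numbers did not pair the tissues (r of deviations between -0.094 and 0.117 over 21 pairs), and the replicate block left 9, 7, 1 and 0 of the 9 genes called higher in the 4 comparisons, changing none of these counts. Seed has 1 column and could not be left out. The unknown depth limits the Ψ fractions of these genes outside seed.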
